A study of Mus musculus with 22 samples.

Results

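Sertoli cells are the somatic cells of the seminiferous tubule that nurse the developing germ cells. They carry the receptor for follicle stimulating hormone (FSH) from the pituitary, which raises cAMP inside the cell, and they answer the pituitary with inhibin, a dimer of an α subunit with a β subunit that lowers FSH release, whereas a pair of β subunits forms activin, which raises it. They also make anti-Müllerian hormone (AMH), which is high in the immature testis and falls at puberty, the hedgehog ligand DHH, which acts on the Leydig cells and peritubular cells outside the tubule, and proteins such as transferrin, clusterin and cystatins that are released into the tubular fluid. Described here are the 9 genes for this output, chosen by name: *Fshr*, *Amh*, *Inha*, *Inhba*, *Inhbb*, *Trf*, *Cst12*, *Clu* and *Dhh*. All 9 were found among the 17931 gene symbols of the count table. The rule that picks them uses no measured value, but the set was drawn up with earlier results of these data known.

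The counts came from RNA-seq of whole testes of 3 wild-type (WT) mice and 3 mice lacking MLX (MLXKO), each aged 7 months. MLX is a basic helix-loop-helix leucine zipper transcription factor that binds E-box DNA as a dimer. The MLXKO animals carried a constitutive deletion of *Mlx* exons 3 to 6 in every cell, made in 129S4 embryonic stem cells and completed with a Meox2-Cre that was then crossed out, so that any change in Sertoli cells cannot be told apart from an effect of the deletion in other cells. The WT animals were fertile, age-matched littermates, and MLXKO males were infertile. Which of the stem cell lines the sequenced animals came from was not given in the sources used here. The *Mlx* count does not check the labels, since it covers the whole gene and the last exon was kept: it was 96 to 128 in the WT libraries and 94 to 109 in the MLXKO libraries. Library totals lay between 16674678 and 19742726 counts.

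Of the 9 genes, 8 had enough reads for testing and all 8 rose in MLXKO testes, with log2 fold changes between 0.37 for *Inhbb* and 1.27 for *Amh* and a median of 0.73, a 1.66-fold difference. The median over all 14640 genes tested was 0.03. None fell. Rises were common in this tissue: 24.8% of all genes tested were higher and 20.6% were lower in MLXKO testes by the same rule, which was a Benjamini-Hochberg adjusted p below 0.05 from the quasi-likelihood test of edgeR. When libraries were scaled by their totals alone, 5343 genes were higher and 1268 were lower, against 3634 and 3015, and the median of all genes moved by 0.13 on the log2 scale. The median of the 8 genes stood 0.70 above the median of all genes in the scaling used here and 0.71 above it with library totals alone. For each of the 8 genes every MLXKO library lay above every WT library, which was the case for 30.3% of all genes tested. The ninth gene, *Inhba*, had between 1 and 7 counts in a library and was not tested. Together the 9 genes took 0.0847%, 0.0873% and 0.0898% of all counts in the WT libraries and 0.14%, 0.175% and 0.174% in the MLXKO libraries, and *Clu* alone gave 80.2% to 82.4% of that sum. In whole testes, more Sertoli cells among the cells sampled and more RNA of these genes in each Sertoli cell cannot be told apart.

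**Figure D1:**
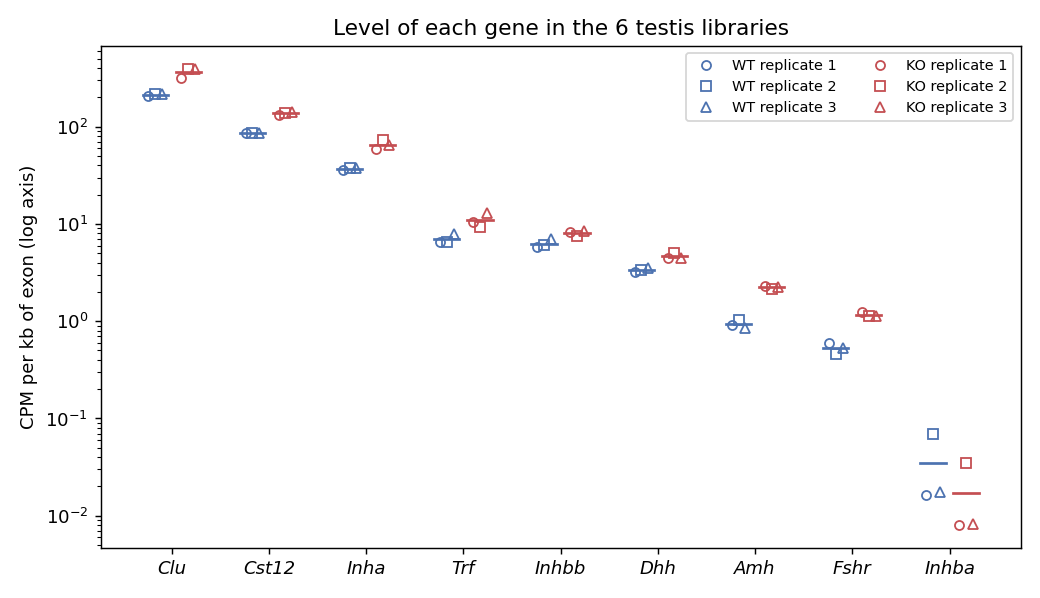
Level of the 9 genes in each library, as CPM per kb of exon on a log axis. Open symbols are single libraries (circle, square and triangle for replicates 1, 2 and 3), bars are means of 3, blue is WT and red is MLXKO. The red symbols lie above the blue ones for all genes except *Inhba*, whose libraries held 1 to 7 counts.

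The genes spanned a wide range of levels. In CPM (counts scaled to a common library size) per kb of exon, the WT mean was 215 ± 7.17 (SD, n = 3) for *Clu*, 86.4 ± 0.188 for *Cst12*, 36.9 ± 1.13 for *Inha*, 7.01 ± 0.843 for *Trf*, 6.27 ± 0.607 for *Inhbb*, 3.36 ± 0.195 for *Dhh*, 0.929 ± 0.0927 for *Amh*, 0.529 ± 0.0726 for *Fshr* and 0.0346 ± 0.0304 for *Inhba*. Clusterin was thus the most abundant transcript per length, and the transcripts of both the FSH receptor and AMH were below 1. Of the neighbours in this order, *Trf* and *Inhbb* overlapped in the WT libraries, at 6.48 to 7.98 against 5.76 to 6.94 CPM per kb, whereas the other neighbours did not overlap. The order of the 9 means was the same in the MLXKO libraries, where *Trf* at 9.35 to 13.1 CPM per kb no longer overlapped *Inhbb* at 7.59 to 8.39.

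*Fshr* encodes the FSH receptor, a G protein-coupled receptor that in males is found on Sertoli cells. It lies on the minus strand of chromosome 17 at chr17:88984952-89200675 (GRCm38, the assembly also called mm10). Its level was 1.42, 1.08 and 1.24 CPM in WT replicates 1, 2 and 3 and 2.94, 2.66 and 2.70 CPM in MLXKO replicates 1, 2 and 3. These came from 17 to 27 counts in a WT library and 48 to 57 in a MLXKO library, which limits the precision. The groups did not overlap, and *Fshr* was 2.22-fold higher in MLXKO testes (log2 fold change 1.14 ± 0.21, SE; edgeR adjusted p = 0.00123), the second largest rise among the 9 genes. The pseudogene *Marcksl1-ps2* lies 1851 bases from *Fshr* and was not in the count table.

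The *Fshr* promoter is shown because it alone, among the promoters of these genes at hand, held the palindromic E-box CACGTG. Dimers of the MLX, MAX and USF families bind these letters, which do not tell the families apart. RefSeq promoter windows of 250 bases before and 50 bases after the start were at hand for 6 of the 9 genes (*Fshr*, *Inha*, *Inhba*, *Inhbb*, *Cst12* and *Dhh*), on the GRCm38.p6 build. The *Cst12* promoter is shown beside it as that of a gene with a similar placement of its window just before the annotated gene, with E-boxes of other letters. Only the 250 bases before the start are printed, for *Fshr* from the minus strand of chr17:89200676-89200925 and for *Cst12* from the plus strand of chr2:148789115-148789364, with every match to CANNTG in capitals.
Fshr: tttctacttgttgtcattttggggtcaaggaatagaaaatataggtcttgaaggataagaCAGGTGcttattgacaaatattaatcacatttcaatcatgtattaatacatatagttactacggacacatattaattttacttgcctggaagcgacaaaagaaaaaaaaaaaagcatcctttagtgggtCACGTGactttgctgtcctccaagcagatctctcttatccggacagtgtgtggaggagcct
Cst12: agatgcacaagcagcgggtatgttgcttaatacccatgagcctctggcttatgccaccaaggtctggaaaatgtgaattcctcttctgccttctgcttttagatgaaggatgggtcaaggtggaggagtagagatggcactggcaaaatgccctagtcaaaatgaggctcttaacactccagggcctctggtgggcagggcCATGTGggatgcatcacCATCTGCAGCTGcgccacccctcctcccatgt
The CACGTG of *Fshr* began at position -61 from the start, and a CAGGTG began at position -190. In *Cst12*, matches began at positions -49, -32 and -26. CACGTG was found in 1 of the 6 windows and in 7.15% of all 32851 RefSeq promoter windows of the same 300 bases, and the looser CANNTG, which includes CACGTG, in 4 of the 6 and in 72.3% of all windows. Both strands were searched. Of the letters read by other factors of the Sertoli cell, GATAA (GATA factors) was present in *Fshr* and *Dhh*, against 25.4% of all windows, and ACAAAG (SOX factors) in *Inhba*, against 18.7%. The other SOX letters ACAATG, present in 12.6% of all windows, AAGGTCA (NR5A1), present in 4.72%, and the cAMP response element TGACGTCA, present in 1.79%, had no match in the 6 windows. The windows of *Inha* and *Inhba* lay inside the annotated genes. Their 250 bases were chr1:75507359-75507608 and chr13:16011601-16011850, whereas the genes begin at 75507077 and 16004256. For *Inha* and *Inhba*, the bases before the annotated gene start were therefore not searched. A match of letters is not a bound site, and ChIP-seq data were not analysed here.

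The genes that carry the FSH signal onward inside the cell did not move as one in whole testes. Their counts come from all cells of the testis, and the part of Sertoli cells in them was not tested. Of the 12 genes of the FSH and cAMP list, 6 were higher, 1 was lower and 5 did not pass the test, with a median log2 fold change of 0.23. The largest rise was that of the adenylyl cyclase gene *Adcy9*, from 11.5 ± 1.06 to 21.1 ± 2.19 CPM (SD, n = 3; log2 fold change 0.87 ± 0.11, SE; edgeR adjusted p = 0.000104). *Prkacb*, a catalytic subunit of protein kinase A, rose by 0.62 ± 0.09 (SE; edgeR adjusted p = 0.000307). *Adcy3*, a further adenylyl cyclase, rose by 0.62 ± 0.14 (SE; edgeR adjusted p = 0.00401). The single gene to fall was *Prkar2a*, a regulatory subunit of the same kinase that is abundant in sperm tails; it was named after its value was seen, and its log2 fold change was -0.55.

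*Amh* encodes anti-Müllerian hormone, a marker of the immature Sertoli cell in the normal course of development. The gene is on the plus strand at chr10:80805240-80807679. Its level was 1.53, 1.72 and 1.41 CPM in the WT replicates and 3.87, 3.60 and 3.76 CPM in the MLXKO replicates, from 25 to 29 and from 65 to 75 counts. All MLXKO libraries lay at more than the highest WT value, and *Amh* had the largest change of the 9 genes (2.41-fold; log2 fold change 1.27 ± 0.18, SE; edgeR adjusted p = 0.000302). The gene starts 317 bases after the end of *Sf3a2*, a splicing factor gene on the same strand, and *Jsrp1* lies 814 bases beyond its other end on the opposite strand. *Sf3a2* had 674 to 829 counts in a library and was lower in MLXKO testes (log2 fold change -0.27 ± 0.07, SE; edgeR adjusted p = 0.00619). *Jsrp1*, with 10 to 16 counts in a WT library and 32 to 34 in a MLXKO library, was higher (log2 fold change 1.14 ± 0.27, SE; edgeR adjusted p = 0.00551). Whether the counting used strand was not given in the sources used here, and the part of reads from these neighbours in the *Amh* count was not tested.

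AMH signals through its own type 2 receptor and the type 1 receptors of the BMP family. Of these 6 receptor and SMAD genes, 3 were higher and 1 was lower, with a median of 0.14. *Amhr2*, the receptor specific to AMH, made by Sertoli and Leydig cells, rose from 203 ± 1.97 to 295 ± 32.9 CPM (SD, n = 3; log2 fold change 0.54 ± 0.07, SE; edgeR adjusted p = 0.000178). *Acvr1*, a type 1 receptor, rose by 0.81 ± 0.20 (SE; edgeR adjusted p = 0.00695), and *Smad1*, an effector of the receptor, had a log2 fold change of -0.34 ± 0.08 (SE; edgeR adjusted p = 0.00572).

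*Inha* encodes the inhibin α subunit, the chain that makes a dimer an inhibin and not an activin. Its place is the plus strand of chr1:75507077-75510366. Its level was 52.5, 55.2 and 55.5 CPM in the WT replicates and 87.3, 107 and 95.8 CPM in the MLXKO replicates. The groups were well apart, with the WT libraries close together and MLXKO replicate 1 the lowest of its group (1.78-fold; log2 fold change 0.83 ± 0.07, SE; edgeR adjusted p = 1.23e-05). *Obsl1*, a cytoskeletal adaptor gene 590 bases from *Inha* on the opposite strand, changed by 0.31 ± 0.08 (SE; edgeR adjusted p = 0.00764).

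*Inhbb* encodes the βB subunit, which with the α subunit makes inhibin B, the main inhibin of males. The minus strand of chromosome 1 carries it, at chr1:119415463-119422248. Its level was 24.5, 26.0 and 29.5 CPM in the WT replicates and 35.3, 32.3 and 35.7 CPM in the MLXKO replicates. The groups did not overlap, but the gap was narrow and the change was the smallest of the 8 genes tested (1.29-fold; log2 fold change 0.37 ± 0.08, SE; edgeR adjusted p = 0.00382).

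*Inhba*, which encodes the βA subunit of inhibin A and activin A, lies on the plus strand at chr13:16004256-16031609 and overlaps the transcribed pseudogene *B230303A05Rik* on the other strand. It had 2, 7 and 2 counts in the WT replicates and 1, 4 and 1 in the MLXKO replicates. A difference was not detectable at this depth, and the groups overlapped.

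Per kb of exon, α exceeded βB subunit transcripts by 6.17, 6.12 and 5.42 times in WT replicates 1, 2 and 3 and by 7.14, 9.56 and 7.74 times in MLXKO replicates 1, 2 and 3. On the log2 scale, with 2 counts added to each gene, the WT libraries had a mean ratio of 2.56 ± 0.10 and the MLXKO libraries one of 3.01 ± 0.22 (SD, n = 3), a difference of 0.46. Every MLXKO library was above every WT library (exact permutation test, two-sided, p = 0.1, the smallest that 3 against 3 can give, so that no p under 0.05 could be reached). The log2 ratio of *Inha* to *Inhba* was 9.62 ± 0.78 in WT and 11.02 ± 0.50 in MLXKO testes (SD, n = 3; exact permutation p = 0.1), and rests on the few *Inhba* counts given above.

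Among the other genes of activin and inhibin signalling, 11 of 13 were tested, with 7 higher, 1 lower and a median of 0.53. *Fst*, which encodes follistatin, a secreted protein that binds and neutralises activins, had the largest change of the list: it rose from 0.555 ± 0.161 to 3.86 ± 0.62 CPM (SD, n = 3; 6.96-fold; log2 fold change 2.79 ± 0.26, SE; edgeR adjusted p = 2.34e-05). This came from 8 to 13 counts in a WT library and 61 to 80 in a MLXKO library, which limits the precision of the fold. *Smad3*, an effector of activin receptors, rose by 1.05 ± 0.11 (SE; edgeR adjusted p = 4.54e-05). *Acvr2a*, a type 2 receptor that binds activin and, with a co-receptor, inhibin, was the single gene to fall (log2 fold change -0.28 ± 0.06, SE; edgeR adjusted p = 0.00332). The genes of the other β subunits, *Inhbc* and *Inhbe*, had too few counts to test.

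*Clu* encodes clusterin, a secreted chaperone that was first isolated from testis fluid and coats sperm. The plus strand carries it at chr14:65968483-65981548. Its level was 709, 748 and 755 CPM in the WT replicates and 1103, 1358 and 1339 CPM in the MLXKO replicates. MLXKO replicate 1 was the lowest of its group, and still above the highest WT library (1.72-fold; log2 fold change 0.78 ± 0.08, SE; edgeR adjusted p = 2.51e-05). Clusterin is taken up by receptors of the LDL receptor family. Of the 3 listed, *Vldlr* rose by 0.72 ± 0.26 (SE; edgeR adjusted p = 0.0399) and *Lrp8* by 0.33 ± 0.06 (SE; edgeR adjusted p = 0.000853). The *Vldlr* change rests on 14 to 20 counts in a WT library and 26 to 32 in a MLXKO library. *Lrp2* had a log2 fold change of -0.29 ± 0.18 (SE; edgeR adjusted p = 0.215), which did not pass the test.

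*Cst12* encodes a cystatin-related protein of the testis and epididymis, of a family of inhibitors of cysteine proteases. It lies on the plus strand at chr2:148789365-148793432. Its level was 56.5, 56.7 and 56.5 CPM in the WT replicates and 87.3, 90.9 and 93.5 CPM in the MLXKO replicates. The 3 WT libraries were almost level, with an SD of 0.123 CPM, and the change had the smallest adjusted p of the 9 genes (1.60-fold; log2 fold change 0.68 ± 0.05, SE; edgeR adjusted p = 4.43e-06). How reads that match more than one member of this gene family were counted was not given in the sources used here. Of the 8 other cystatin genes listed, 5 were tested. *Cstb*, a cystatin found inside cells of many types, rose by 1.21 ± 0.15 (SE; edgeR adjusted p = 0.000132), *Cst3*, the widely expressed cystatin C, rose by 0.54 ± 0.05 (SE; edgeR adjusted p = 3.31e-05), and *Cst13*, a cystatin of the testis, had a log2 fold change of -0.45 ± 0.06 (SE; edgeR adjusted p = 0.000173). In all, 3 were higher and 2 were lower, with a median of 0.25.

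*Trf* encodes transferrin, the iron carrier that Sertoli cells make for germ cells behind the blood-testis barrier. It lies on the minus strand at chr9:103208876-103230286. Its level was 21.5, 21.8 and 26.5 CPM in the WT replicates and 35.2, 31.0 and 43.6 CPM in the MLXKO replicates. Replicate 3 was the highest library in each group, and the groups did not overlap (1.57-fold; log2 fold change 0.65 ± 0.12, SE; edgeR adjusted p = 0.00143). Of the 9 other iron genes, 8 were higher, the ninth did not pass the test, and the median was 0.68. *Tfrc*, the transferrin receptor through which cells take up iron, rose by 0.35 ± 0.10 (SE; edgeR adjusted p = 0.0168). The largest changes of the list were those of *Steap3*, an endosomal ferric reductase (1.44 ± 0.25, SE; edgeR adjusted p = 0.000889), and of *Slc40a1*, the iron exporter ferroportin (1.20 ± 0.25, SE; edgeR adjusted p = 0.00282), both of which macrophages also express. The macrophage markers, given below, rose in the same libraries, and the part of macrophages in the rise of the iron genes was not tested.

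*Dhh* encodes desert hedgehog, the ligand through which Sertoli cells act on Leydig and peritubular myoid cells. The gene is on the minus strand at chr15:98881615-98898562. Its level was 14.0, 14.7 and 15.7 CPM in the WT replicates and 19.8, 22.0 and 19.5 CPM in the MLXKO replicates. The groups did not overlap (1.38-fold; log2 fold change 0.47 ± 0.09, SE; edgeR adjusted p = 0.00142). *Rhebl1* begins 117 bases beyond the end of *Dhh* on the same strand. It had a log2 fold change of 0.18 ± 0.16 (SE; edgeR adjusted p = 0.395) and between 51 and 71 counts in a library, against 231 to 398 for *Dhh*.

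Of 15 other hedgehog genes, 13 were tested, with 6 higher, 1 lower and a median of 0.42. *Ptch1*, the receptor of the ligand and itself a target of the pathway, rose from 5.62 ± 0.68 to 11.1 ± 0.126 CPM (SD, n = 3; 1.98-fold; log2 fold change 0.99 ± 0.12, SE; edgeR adjusted p = 9.82e-05). *Hhip*, a decoy receptor that is likewise a target, rose by 1.05 ± 0.26 (SE; edgeR adjusted p = 0.00684), and *Gas1*, a co-receptor, by 1.01 ± 0.16 (SE; edgeR adjusted p = 0.000576). The *Hhip* change rests on 13 to 17 counts in a WT library and 28 to 40 in a MLXKO library. The ligand genes *Shh* and *Ihh* had too few counts to test. The 6 listed Leydig cell genes, which mark cells that receive DHH, were all higher, with a median of 1.16.

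**Figure D2:**
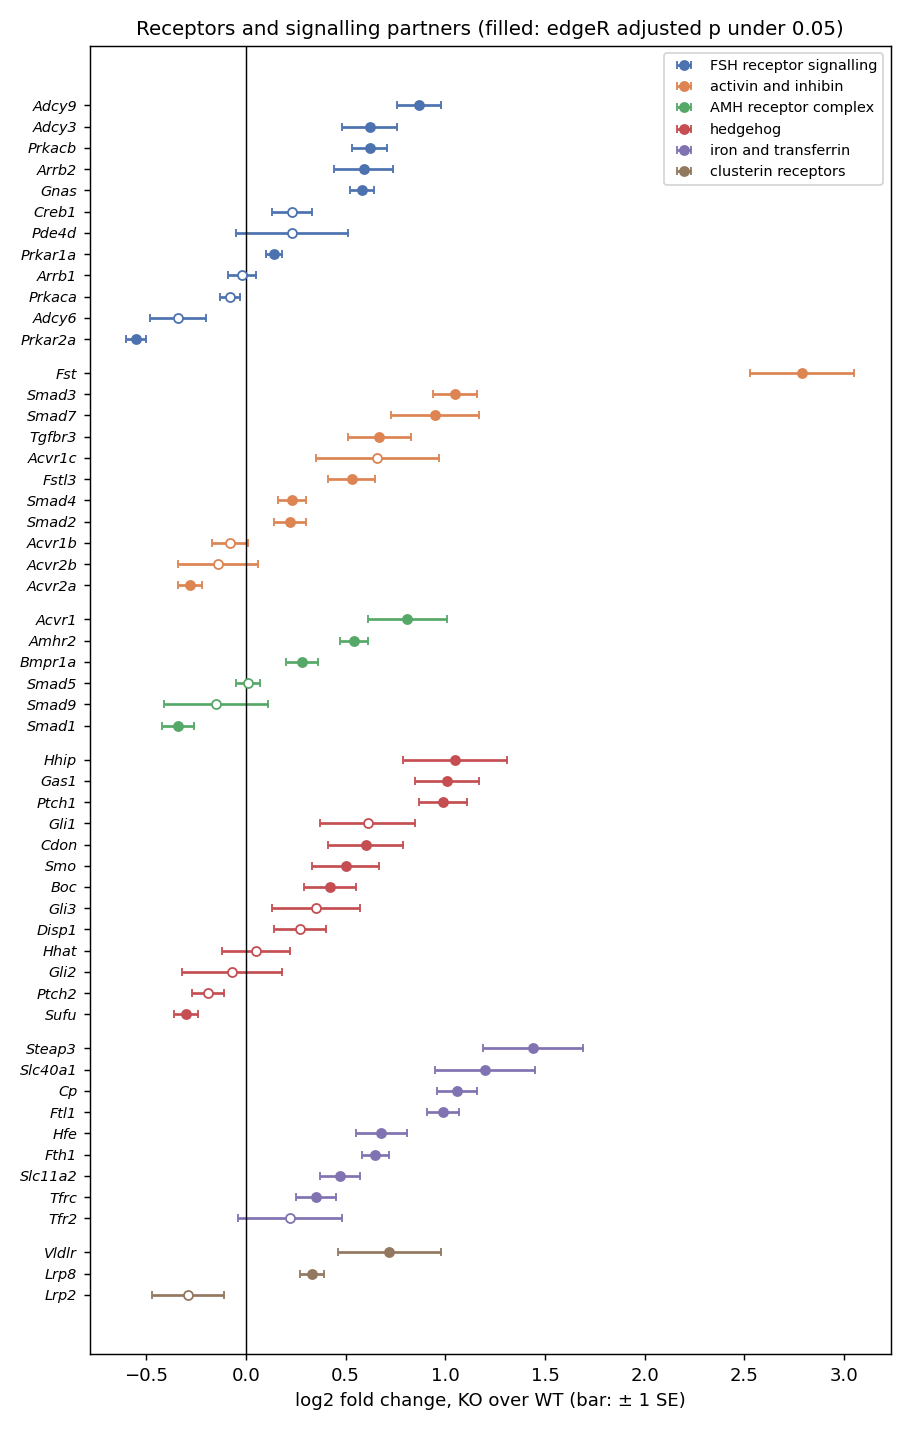
Log2 fold change of MLXKO over WT testes for receptors and signalling genes of each hormone or secreted protein; bars are 1 SE, and filled points have an edgeR adjusted p under 0.05. *Fst*, with 8 to 13 counts in a WT library, stands farthest to the right, at 2.79, and 8 of the 9 iron genes are filled on the right of 0.

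The rise of the 8 genes was then set beside that of other Sertoli genes. The 6 reference genes of the nucleus, cytoplasm and junctions (*Sox9*, *Wt1*, *Gata1*, *Cldn11*, *Rhox8* and *Aard*) were all higher in MLXKO testes, with a median log2 fold change of 0.69, and their summed level was 248 to 255 CPM in WT and 356 to 421 CPM in MLXKO libraries. *Gata1*, a transcription factor of Sertoli cells in some stages of the tubule, changed by 0.87, *Cldn11*, a claudin of the blood-testis barrier, by 0.79, and *Sox9*, the Sertoli cell determinant, by 0.78. Of 7 further Sertoli markers, 6 were higher, with a median of 0.61. *Cst9* counts both here and among the cystatins.

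**Figure D3:**
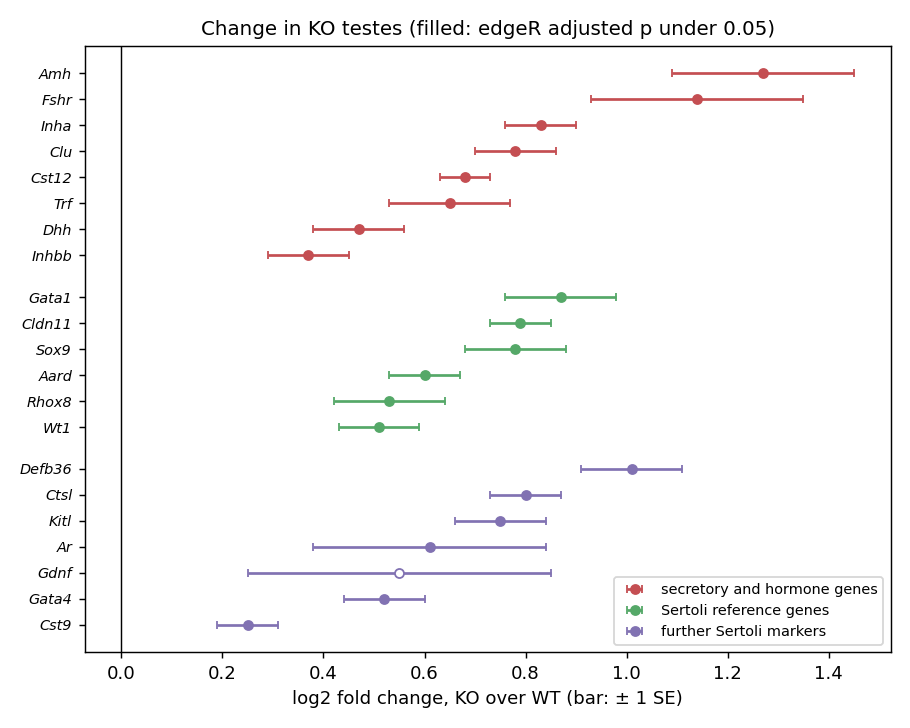
Log2 fold change of MLXKO over WT testes for the 8 genes tested, the 6 Sertoli reference genes and 7 further Sertoli markers; bars are 1 SE, and filled points have an edgeR adjusted p under 0.05. The 8 genes run from 0.37 to 1.27, the reference genes from 0.51 to 0.87 and the further markers from 0.25 to 1.01.

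To compare a gene with the reference genes inside each library, the mean log2 CPM of the 6 was subtracted from its own. *Amh* had the largest difference, from -4.04 ± 0.12 in WT to -3.50 ± 0.19 in MLXKO testes (SD, n = 3), which is 0.54 higher. *Fshr* was 0.42 higher, from -4.34 ± 0.20 to -3.92 ± 0.22, and MLXKO replicate 1, at -3.67, was its highest library. *Inha* was 0.15 higher and *Clu* 0.10 higher. In these 4 genes each MLXKO library was above its WT littermate. *Cst12* and *Trf* differed by 0.01 and -0.03, less than the spread between libraries. *Dhh* and *Inhbb* stood lower against the reference in MLXKO testes: *Dhh* went from -0.88 ± 0.08 to -1.09 ± 0.13 and *Inhbb* from -0.03 ± 0.13 to -0.34 ± 0.19 (SD, n = 3), differences of -0.21 and -0.30, with each MLXKO library below its WT littermate, although for *Inhbb* both libraries of replicate 1 were at -0.13. Of the 8 comparisons, 6 gave the smallest p that 3 against 3 allows (exact permutation test, two-sided, p = 0.1), and the p of *Trf* was 0.9 and that of *Cst12* was 1 by the same exact test. None could pass 0.05 in this design. Sertoli genes also differed among themselves: log2 fold changes ran from 0.51 to 0.87 in the reference genes and from 0.25 to 1.01 in the further Sertoli markers. Of the 8 genes, only *Amh* at 1.27 and *Fshr* at 1.14 lay outside the range of the further markers, and *Dhh* at 0.47 and *Inhbb* at 0.37 lay within it.

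**Figure D4:**
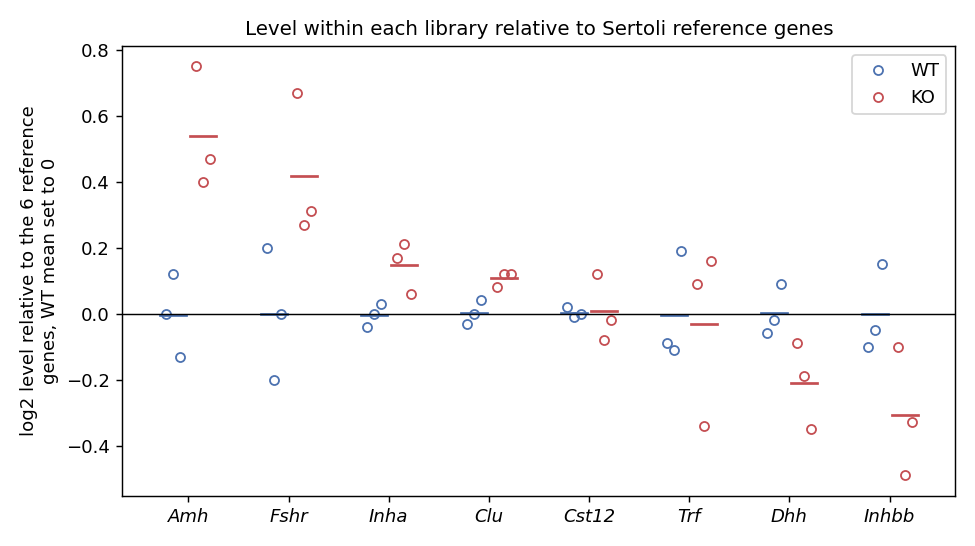
Log2 level of each gene relative to the mean of the 6 Sertoli reference genes of the same library, with the WT mean set to 0. Circles are libraries, bars are means of 3, blue is WT and red is MLXKO. *Amh* and *Fshr* lie above 0 in the MLXKO libraries, *Cst12* and *Trf* lie around 0, and *Dhh* and *Inhbb* lie below it.

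Genes of other cells moved in the same libraries. The 7 spermatid genes listed all fell, with a median log2 fold change of -0.74 and a summed level of 14662 to 15442 CPM in WT and 8221 to 10137 CPM in MLXKO libraries. Of the 6 spermatocyte genes, 4 fell and 2 did not pass the test, with a median of -0.16, and of 5 spermatogonial genes tested, 2 rose and 3 did not pass. The sum of the 6 Leydig cell genes was 798 to 814 CPM in WT and 1763 to 2310 CPM in MLXKO libraries. The 6 macrophage genes in the table were all higher, with a sum of 65.5 to 70.1 CPM in WT and 119 to 129 CPM in MLXKO libraries. Of 5 myoid and 5 endothelial genes, 4 and 2 were higher, with medians of 0.56 and 0.55. Red cell and epididymis genes were listed to check for blood and for attached tissue, but only *Alas2* and *Rnase10* could be tested. *Hba-a1*, *Hbb-bs*, *Hbb-bt* and *Lcn8* were not in the count table, and *Hba-a2* had at most 2 counts in a library. *Lcn5*, *Lcn9*, *Adam7* and *Crisp1* had at most 4. *Alas2* alone therefore does not check for blood, nor *Rnase10* for attached tissue. *Alas2* had a log2 fold change of 0.03 (edgeR adjusted p = 0.816), *Rnase10* had one of -0.68 (edgeR adjusted p = 0.00991), and the 5 epididymis genes in the table summed to 4.11 to 5.02 CPM in WT and 2.66 to 3.34 CPM in MLXKO libraries. CPM values are shares of a library, and the part of these other cells in the rise of the 8 genes was not tested.

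The 8 genes followed each other across the 6 libraries. The Pearson r of a gene with the mean of the other 7 lay between 0.888 for *Trf* and 0.997 for *Cst12* (n = 6 libraries). This describes mainly the step between the genotypes that all 8 share. The 5 other genes with the most similar profile, among 11039 with a mean of at least 5 CPM, were *Hsd17b12* (r = 0.9993), *Arl6ip5* (0.9991), *Trim25* (0.9989), *Serping1* (0.9988) and *Serpina3n* (0.9987). Their changes were of very different size: *Arl6ip5* was 1.86-fold, *Hsd17b12*, a fatty acid elongation enzyme, 2.10-fold, *Trim25*, a ubiquitin ligase of antiviral signalling, 2.32-fold, *Serping1*, the C1 inhibitor of complement, 3.47-fold and *Serpina3n*, a secreted protease inhibitor, 22.1-fold higher in MLXKO testes. In all, 1196 genes had an r of at least 0.95.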

How the data were processed

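Whole testes of 3 WT and 3 MLXKO mice, as littermate pairs, were sequenced. The authors aligned paired-end reads to mm10 with TopHat and deposited raw counts per gene, together with their own comparison (fold changes and p-values), which was not used. The counting tool, annotation and strand setting were not given in the sources used here. The table has 17933 rows; 2 repeated rows were used once.

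Counts were tested with edgeR 4.0.16 (R 4.3.3): TMM scaling, filterByExpr, the quasi-likelihood test of genotype over 6 libraries and Benjamini-Hochberg adjustment over all genes tested. The SE is the absolute log2 fold change divided by the square root of F. CPM used TMM library sizes. Levels per kb used GENCODE M21 exon lengths, and coordinates are RefSeq GRCm38.p6. Within-library ratios used log2 CPM with a prior count of 2. The scripts were tested on simulated data.

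Replicate numbers mark littermates. Same-numbered libraries deviated from their group means with correlations of 0.145, 0.0363 and 0.121 over genes. For WT and MLXKO libraries of different numbers the correlations ran from -0.123 to 0.033, close to the 0.0363 of replicate 2 at the upper end. The main fit has no replicate block, and a paired fit was an alternative.

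The genes and lists were chosen with earlier results of these data known. Named from each list were at most 3 genes, receptors of the gene products first and then the largest changes, plus any annotated gene within 2 kb and the 5 most similar profiles. *Prkar2a*, a further gene of the FSH and cAMP list, was named outside this rule after its value was seen. Alternatives were DESeq2 1.42.0, other scalings and filters, the paired fits and leaving out each library.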

Additional observations from a re-analysis of the deposited data

How the results depend on the processing

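The 8 genes tested stayed higher, and past the threshold, in each of the 14 alternatives run: DESeq2, 3 other scalings, 2 other filters on low counts, both paired fits and the 6 fits without 1 library. With the replicate block, edgeR called 3736 genes higher and 3007 lower, and all 8 genes were among the former; the block changed the call of none of the 8. For all genes, 2 counts moved by over 1.5 times: library totals alone left 1268 lower, and DESeq2 with the replicate block left 2193 higher. The main counts were 3015 lower and 3634 higher, and the cause was not tested. Leaving out 1 library gave 2978 to 3990 genes higher and 2134 to 3405 lower. *Inhba* had an estimate without a filter (log2 fold change -0.95, edgeR adjusted p = 0.433), which rests on at most 7 counts in a library. The MLXKO minus WT difference in the log2 ratio of *Inha* to *Inhbb* was 0.34 to 0.55 without 1 library, and the mean of the differences within littermate pairs, the paired value, was 0.46. For *Inha* to *Inhba* it was 0.95 to 1.69 without 1 library. Relative to the Sertoli reference, *Fshr* was 0.29 higher without MLXKO replicate 1 and 0.52 without WT replicate 1, and *Amh* was 0.44 to 0.62 higher. The differences of *Trf*, from -0.12 to 0.13, and *Cst12*, from -0.05 to 0.05, changed sign with the library left out. Counts of 17 to 75 limit the precision for *Fshr* and *Amh*, and 3 animals against 3 limit every exact test.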
